A study of Mus musculus with 6 samples.

Results

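In the Serpina cluster of mouse chromosome 12, 4 accessible sites were called in no fasted liver library but in every fed one, a pattern held by 1.57% of all accessible sites of the series, and 2 were called in every fasted and no fed one (1.17% of all). Of 33 sites called in all libraries, 10 were lower and 0 higher in fasted livers, where 7.84% and 7.89% of all such sites of the series were. The cluster was taken as the window chr12:104850000-105320000 (build mm9), which runs from Serpina6 to Serpina12 by the rule used here and whose named genes are Serpina6, Serpina10, Serpina1a, Serpina1b, Serpina11 and Serpina12. Whether Serpina10 lies inside it was not checked. DNase I hypersensitive sites had been mapped by sequencing, with a list of hotspots (local excesses of sequenced ends, which mark open DNA) for each library. The 3 fasted libraries came from livers of C57BL/6 mice fasted for 24 h, and the 3 fed libraries from livers of C57BL/6 mice fed ad libitum. The labels state no age and do not say whether animals were pooled. Hotspots of all 6 lists that overlapped by at least 1 bp were merged into union regions, and the 65 of 75169 union regions that overlapped the window are the members. Of these 65, 33 were called in all 6 libraries, 4 in all 3 fed and no fasted libraries, 2 in all 3 fasted and no fed libraries, 14 in 1 library only and 12 in other combinations. The window was selected on the calls and maximum tag densities of a pair of its sites, fed-only and among the strongest such sites of the series. The contrast of fasted with fed livers inside it is therefore a description, and no test of it is claimed.

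Serpins are protease inhibitors, most of which trap their target protease by a large change of shape, and hepatocytes secrete many of them into the blood. Serpina1a and Serpina1b are among the mouse copies of alpha-1-antitrypsin, an inhibitor of neutrophil elastase. Serpina10 is the protein Z-dependent inhibitor of clotting factor Xa. Serpina6 is corticosteroid-binding globulin, a carrier of glucocorticoids that inhibits no protease, and Serpina12 is vaspin, first known as a product of fat tissue. DNase I hypersensitive sites mark promoters, enhancers and other DNA bound by regulatory proteins. In RefSeq's gene table for mouse (GRCm38.p6), the genes from Serpina10 to Serpina12 number 21, of which 12 are protein-coding, all 12 of them Serpina genes. Their order is Serpina10, Serpina6, Serpina16, Serpina1f, Serpina1b, Serpina1d, Serpina1a, Serpina1c, Serpina1e, Serpina11, Serpina9 and Serpina12. The hotspots are on mm9, another build, so no region was assigned to a gene, and the lists were not checked against liver marker genes.

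RefSeq promoter windows (GRCm38.p6, chromosome 12, minus strand, 250 bases before to 50 after the start) were at hand for 4 of the 6 named genes, and they show how alike the copies of the alpha-1-antitrypsin gene are. Capitals mark the letters GTTAAT, the core of the site of the hepatocyte factor HNF1, searched on both strands.
Serpina1a promoter: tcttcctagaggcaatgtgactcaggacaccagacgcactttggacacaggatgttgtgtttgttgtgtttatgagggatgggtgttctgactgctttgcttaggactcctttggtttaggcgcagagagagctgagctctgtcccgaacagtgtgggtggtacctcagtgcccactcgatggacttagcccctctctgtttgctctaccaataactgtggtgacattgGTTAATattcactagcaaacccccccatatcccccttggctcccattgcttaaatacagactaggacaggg
Serpina1b promoter: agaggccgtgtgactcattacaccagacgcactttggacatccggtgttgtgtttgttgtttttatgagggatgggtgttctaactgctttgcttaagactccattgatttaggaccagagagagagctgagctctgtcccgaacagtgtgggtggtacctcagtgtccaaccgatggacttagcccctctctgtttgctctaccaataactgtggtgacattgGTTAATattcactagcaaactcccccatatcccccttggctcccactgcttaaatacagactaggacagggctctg
Serpina11 promoter: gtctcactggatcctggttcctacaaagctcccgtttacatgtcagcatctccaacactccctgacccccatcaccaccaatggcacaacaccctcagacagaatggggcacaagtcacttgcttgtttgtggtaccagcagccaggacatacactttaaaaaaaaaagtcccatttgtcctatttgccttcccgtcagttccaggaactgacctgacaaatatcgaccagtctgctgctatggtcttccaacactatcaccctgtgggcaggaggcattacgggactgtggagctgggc
Serpina12 promoter: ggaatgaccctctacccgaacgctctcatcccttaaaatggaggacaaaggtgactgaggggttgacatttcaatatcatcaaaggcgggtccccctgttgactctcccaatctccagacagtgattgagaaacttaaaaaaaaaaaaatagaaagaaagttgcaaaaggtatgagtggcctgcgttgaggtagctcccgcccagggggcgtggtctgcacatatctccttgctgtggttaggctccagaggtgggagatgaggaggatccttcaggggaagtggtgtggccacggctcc
GTTAAT was found in the windows of all 5 copies (Serpina1a to Serpina1e) and not in those of Serpina11 and Serpina12, while 7.10% of all 32851 promoter windows held it on either strand. The letters CAAAGTCCA (HNF4) and TGACGTCA (CREB) were on neither strand of these 7 windows, and were in 0.475% and 1.79% of all windows. Over the 10 pairs of copies, the windows were 91.4% to 97.6% identical along 240 to 300 aligned positions, and the longest run without a mismatch was 59 to 119 bases. The sources used here do not say how tags matching several copies were placed, so hotspots in the stretch of copies are uncertain as to copy. A match of letters is a description and not a binding site.

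The 6 lists held 49682 (fasted replicate 1), 63476 (fasted replicate 2), 50620 (fasted replicate 3), 51609 (fed replicate 1), 50990 (fed replicate 2) and 63105 (fed replicate 3) hotspots. The maximum densities of a library lay on even steps, and if 1 step is 1 tag, fasted replicate 2 and fed replicate 3 had 1.90 and 1.64 times as many tags as fed replicate 2, the shallowest. Densities are printed as deposited. They run lower in the deepest libraries, where the median hotspot had 10.3 (fasted replicate 2) and 12.1 (fed replicate 3) against 16.2 to 17.7 in the other 4. Differences were therefore taken on log2(density + 1), less the library's median over the 37044 regions called in all 6, and they understate the change of weak regions. The labels do not say that each library came from a separate animal, so the spread may be partly technical. In whole liver, fewer cells with an open site and less opening per cell cannot be told apart.

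Hotspots covered less of the window on average in fasted livers, but the groups overlapped. The window held 48, 50 and 49 hotspots in fasted replicates 1 to 3 and 50, 51 and 59 in fed replicates 1 to 3. Inside its limits they covered 41.6, 50.04 and 43.1 kb in fasted livers and 43.0, 47.0 and 59.2 kb in fed livers, or 44.9 ± 4.50 kb and 49.7 ± 8.48 kb (SD, n = 3 each). As a share of all DNA covered by hotspots in the same library, this was 0.0982%, 0.0898% and 0.102% in fasted livers and 0.104%, 0.112% and 0.106% in fed livers. These totals count the pair of fed-only sites that led to the window. Without the pair, an alternative chosen after the data were seen, the fed shares were 0.0989%, 0.106% and 0.102%, and the groups overlapped. The average tag density over the covered DNA was 11.9 ± 2.48 in fasted livers, and in fed livers 16.6 ± 1.82 with the pair and 16.2 ± 1.78 without it (SD, n = 3 each). These densities are as deposited and not scaled by library. By library they were 12.8, 9.06 and 13.8 in fasted replicates 1 to 3, where replicate 2 is the deepest library. With the pair they were 18.7, 15.7 and 15.5 in fed replicates 1 to 3. The window was crowded, with 13.8 regions per 100 kb where all of chromosome 12 had 2.61. It held 65 regions in 470 kb, of which 14 were called in 1 library only. The 300 kb before and after it held 24 and 18 regions. The longest empty gap, 49.6 kb, lay between chr12:105011188-105012348 and chr12:105061979-105062589, with no hotspot in any library. Whether tags could be placed there was not checked, so the gap is not read as closed DNA.

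**Figure D1:**
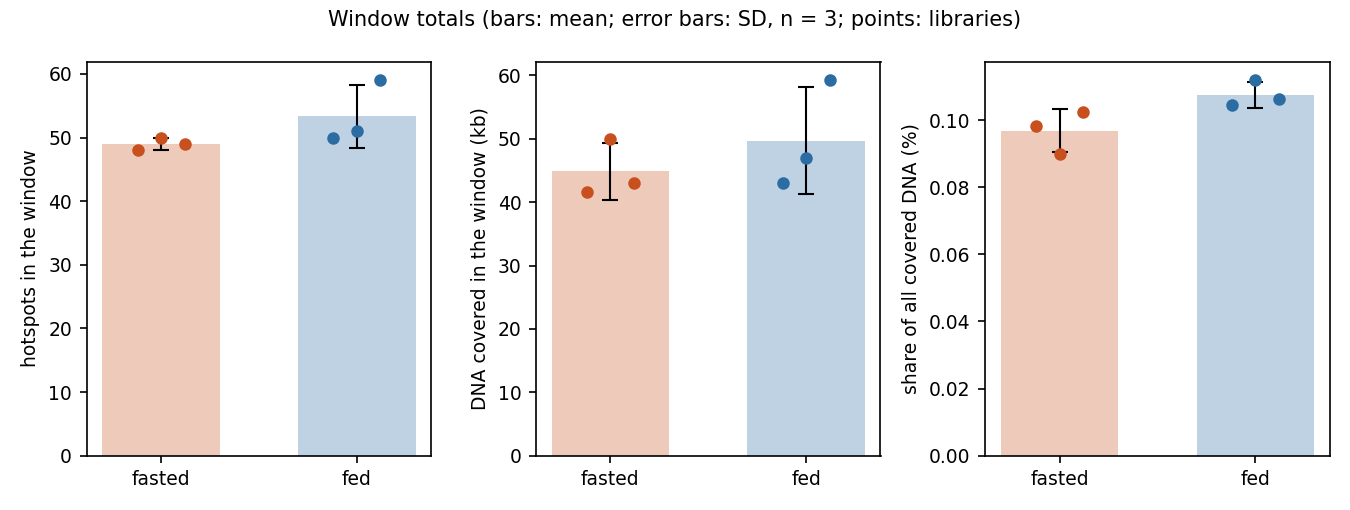
Hotspots, covered DNA in kb and share of all covered DNA in percent inside the window, for fasted (left) and fed (right) livers; bars are means, error bars SD (n = 3) and points libraries. The groups overlap in covered DNA, and the fasted shares, 0.0898% to 0.102%, lie just below the fed shares, 0.104% to 0.112%, which include the chosen pair.

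Sites called in no fasted and every fed library made up 4 of the 65 regions (6.15%), where 1.57% of all union regions have this pattern. Called in every fasted and no fed library were 2 (3.08%), where 1.17% of all union regions are. Nothing is read from these shares, because the pair that led to the choice of the window is among the 4.

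The chosen pair lies towards the Serpina12 end, with 2641 bp between its sites. The first, chr12:105230197-105231744 (380.2 kb into the window), had a maximum tag density of 76.5, 54.3 and 86.1 in fed replicates 1 to 3, or 72.3 ± 16.3 (SD, n = 3). The second, chr12:105234386-105235315 (384 kb), had 76.5, 62.9 and 68.2 in fed livers, or 69.2 ± 6.83 (SD, n = 3). Neither was called in a fasted library. A missing call is an unknown density, and 5% of the hotspots in the fasted lists stood at or below 4.54, 2.96 and 4.54 in replicates 1 to 3. Among the 1183 fed-only regions of the series the pair ranks 4th and 5th by mean density.

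The nearest neighbours on both sides of the pair stayed called in all 6 libraries. On the left, chr12:105226850-105228684 (377 kb) had 80.0, 95.1 and 93.2 in fasted and 129, 129 and 135 in fed livers. The groups did not overlap, with a log2 difference of -0.48 (SE 0.14). On the right, chr12:105240694-105241554 (391 kb) had 30.6, 20.5 and 39.4 in fasted and 47.4, 51.0 and 47.8 in fed livers, again without overlap, with a log2 difference of -0.65 (SE 0.19).

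The third fed-only region, chr12:105318743-105327877 (469 kb), crosses the end of the window. Its density was 53.0, 53.6 and 62.5 in fed replicates 1 to 3, and it was called in no fasted library. At 9135 bp it is the widest of all 75169 union regions. Each fed library covered it with a single hotspot, of 7868, 7657 and 9135 bp. The fourth, chr12:104896332-104896942 (46.3 kb), is narrow and weaker, at 20.6, 28.9 and 12.4 in fed livers, and ranks 173rd of the 1183. It lies between shared regions 281 bp before it and 200 bp after it.

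The 2 sites called in fasted livers alone had lower mean densities than the 4 fed-only ones. The stronger, chr12:105215125-105215824 (365 kb), had 20.7, 14.4 and 15.7 in fasted replicates 1 to 3, or 17.0 ± 3.32 (SD, n = 3), ranks 102nd of the 879 fasted-only regions of the series, whose median is 8.78, and lies 11025 bp before the shared region at 377 kb. The other, chr12:104853206-104853808 (3.21 kb), had 7.38, 6.51 and 6.66 and ranks 618th. It lies 23 bp from a shared region, and when hotspots within 150 bp were merged it lost its status and 1 fasted-only site was left. Without fed replicate 3 the fasted-only sites numbered 5.

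**Figure D2:**
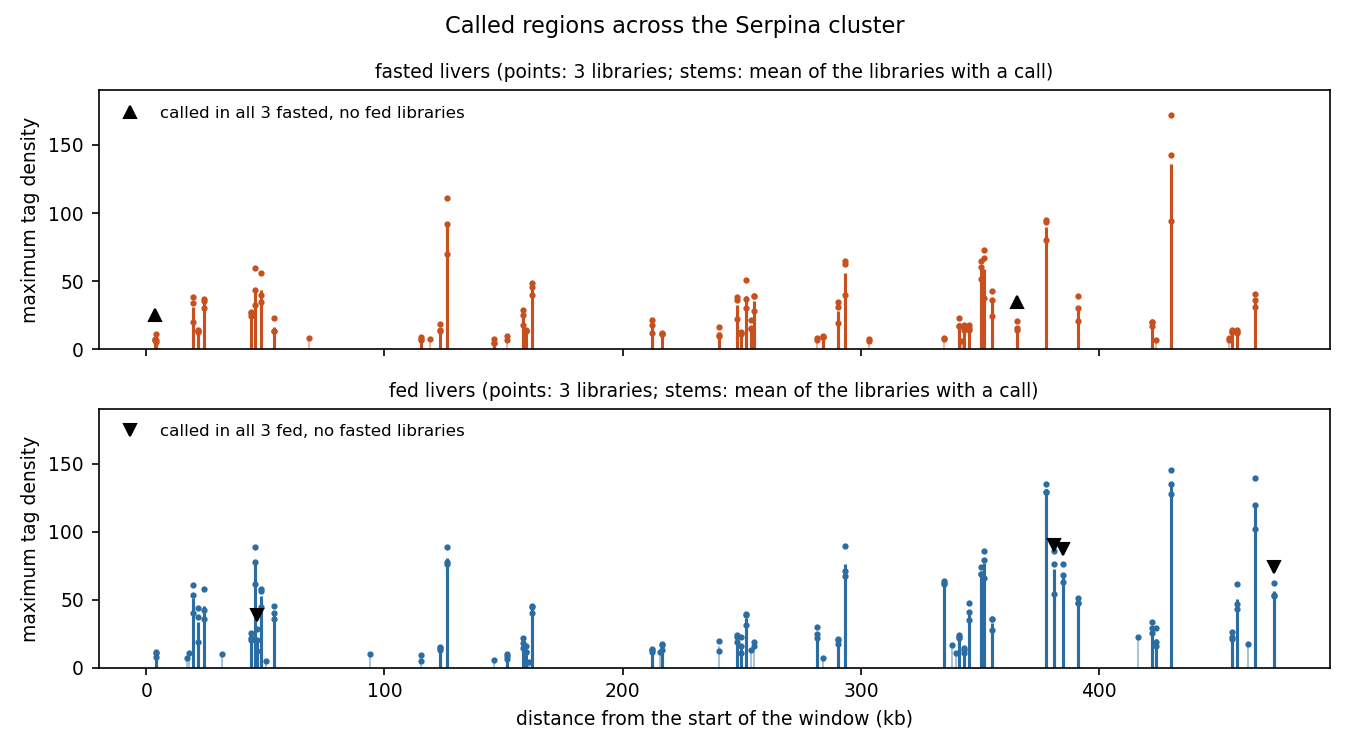
Maximum tag density of the called regions along the window, in kb from its start, in fasted (top) and fed (bottom) livers; points are libraries, stems the mean of libraries with a call (pale where not all 3 called), and triangles the sites called in 1 group only. The fed-only pair stands at 380.2 and 384 kb beside a shared site at 377 kb.

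Another broad region resembled the fed-only sites but kept short, low hotspots in fasted livers. It was named after its values were seen. At chr12:105182138-105187497 (332 kb), 5360 bp wide and the 34th widest of the series, fed libraries reached 63.6, 61.4 and 62.3, or 62.4 ± 1.10 (SD, n = 3). Fasted replicates 1 and 2 had hotspots of 256 and 737 bp there with densities of 7.38 and 8.49. These are 26 and 43 tags if 1 step is 1 tag. Fasted replicate 3 had no hotspot there. The main hotspots of fed replicates 1 to 3 were 3980, 3429 and 5360 bp wide. Since 1 fasted library had no call, no difference was computed.

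**Figure D3:**
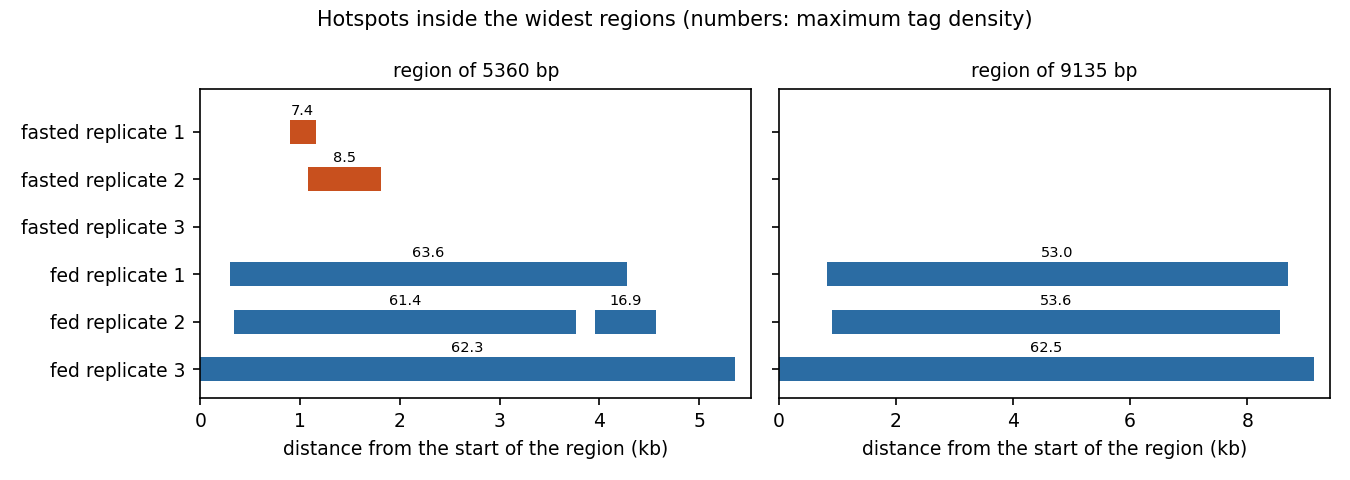
Hotspots of each library inside the 2 widest regions of the window, in kb from the start of the region, with fasted libraries above fed; numbers are maximum tag densities. In the 5360 bp region fasted hotspots are short and low (7.38 and 8.49 against 61.4 to 63.6 in the main fed hotspots), and in the 9135 bp region there is none.

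Of the 33 shared regions, 10 were lower in fasted livers past an adjusted p of 0.05 in limma's fit over all 37044 shared regions (30.3%), and 0 were higher. Over all shared regions 7.84% were lower and 7.89% higher by the same rule. At an unadjusted p of 0.05, 12 were lower and 2 higher. The share of all shared regions past this unadjusted cut was not computed. Groups did not overlap, after centring, at 12 regions with fasted lower and 5 with fasted higher, where 14.6% and 16.8% of all shared regions are so. The median log2 difference of the 33 was -0.30, with a range of -1.81 to 0.58, and that of all shared regions was 0.03. The 33 share the contrast that led to the window, so nothing is read from these shares. Without fed replicate 3, 6 regions were lower, and without fasted replicate 2 or fed replicate 1 there were 2 and 1 higher. The median was 0.10 when the outer 50 kb on each side were left out.

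Among the shared regions, for which alone a difference was computed, the greatest losses lay at the Serpina12 end of the window. At chr12:105307645-105308504 (458 kb), maximum tag density was 12.2, 12.4 and 13.9 in fasted and 47.1, 43.5 and 61.6 in fed livers. All fasted libraries lay far below all fed ones, at 12.9 ± 0.936 against 50.7 ± 9.58 (SD, n = 3 each), with a log2 difference of -1.81 (SE 0.20). At chr12:105314486-105316553 (464 kb), a strong fed site, density was 36.3, 31.4 and 40.3 in fasted and 139, 102 and 119 in fed livers, with a log2 difference of -1.64 (SE 0.15). These 2 regions, the weaker chr12:105305452-105306253 and the 9135 bp fed-only region form a run of 4 that fell or lost their calls, interrupted by a site called in fed replicate 3 alone. The weaker region (455 kb) had 13.1, 13.0 and 14.5 in fasted and 22.4, 21.4 and 26.5 in fed livers, a log2 difference of -0.67 (SE 0.20). Its call was lost without fasted replicate 1 (-0.63), fasted replicate 3 (-0.67) or fed replicate 3 (-0.56), and with missing calls filled in the fit over all regions (adjusted p 0.0517 in limma).

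The other losses of the Serpina12 side were a site on its own and the pair's neighbours. chr12:105194817-105195704 (345 kb) had 17.9, 15.8 and 14.2 in fasted and 47.4, 34.8 and 41.2 in fed livers, 16.0 ± 1.83 against 41.2 ± 6.30 (SD, n = 3 each), with a log2 difference of -1.24 (SE 0.20). It lies 1031 bp from chr12:105193092-105193785, which had 14.5, 15.4 and 17.9 in fasted and 14.3, 13.1 and 10.8 in fed livers, a difference of 0.38 (SE 0.21) that did not pass. The neighbours of the fed-only pair described above, which with it form a run of 4 that fell or lost their calls, had smaller differences and less firm calls. The call at 377 kb was lost without fasted replicate 1 (-0.38), fasted replicate 3 (-0.45), fed replicate 2 (-0.48) or fed replicate 3 (-0.43), and with average tag density (-0.32). That at 391 kb was lost without fasted replicate 1 (-0.67), fasted replicate 2 (-0.46), fed replicate 2 (-0.60) or fed replicate 3 (-0.63). With missing calls filled, neither passed (adjusted p 0.0631 and 0.0566 in limma).

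At the start of the window, on the side of Serpina6, 4 shared regions fell. chr12:104903310-104904092 (53.3 kb) had 22.7, 13.2 and 13.6 in fasted and 45.2, 40.1 and 36.2 in fed livers, a log2 difference of -1.21 (SE 0.21) without overlap. chr12:104871374-104872413 (21.4 kb) had 13.9, 13.2 and 13.0 in fasted and 37.5, 19.1 and 43.7 in fed livers, a difference of -1.11 (SE 0.25). The 3 fasted values lay close together, while fed replicate 2 stood well below the other fed libraries. chr12:104894936-104896050 (44.9 kb) had 43.7, 32.6 and 59.6 in fasted and 88.6, 77.9 and 61.8 in fed livers. The deposited densities of its groups were near each other at fasted replicate 3 and fed replicate 3, and the difference of -0.69 (SE 0.18) did not pass without fed replicate 1 (-0.60). chr12:104868715-104870287 (18.7 kb) had 34.0, 20.3 and 38.7 in fasted and 60.7, 40.5 and 53.6 in fed livers, a difference of -0.67 (SE 0.20). It did not pass without fasted replicate 2 (-0.46), fed replicate 1 (-0.57) or fed replicate 3 (-0.61), nor with missing calls filled (adjusted p 0.0853 in limma).

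**Figure D4:**
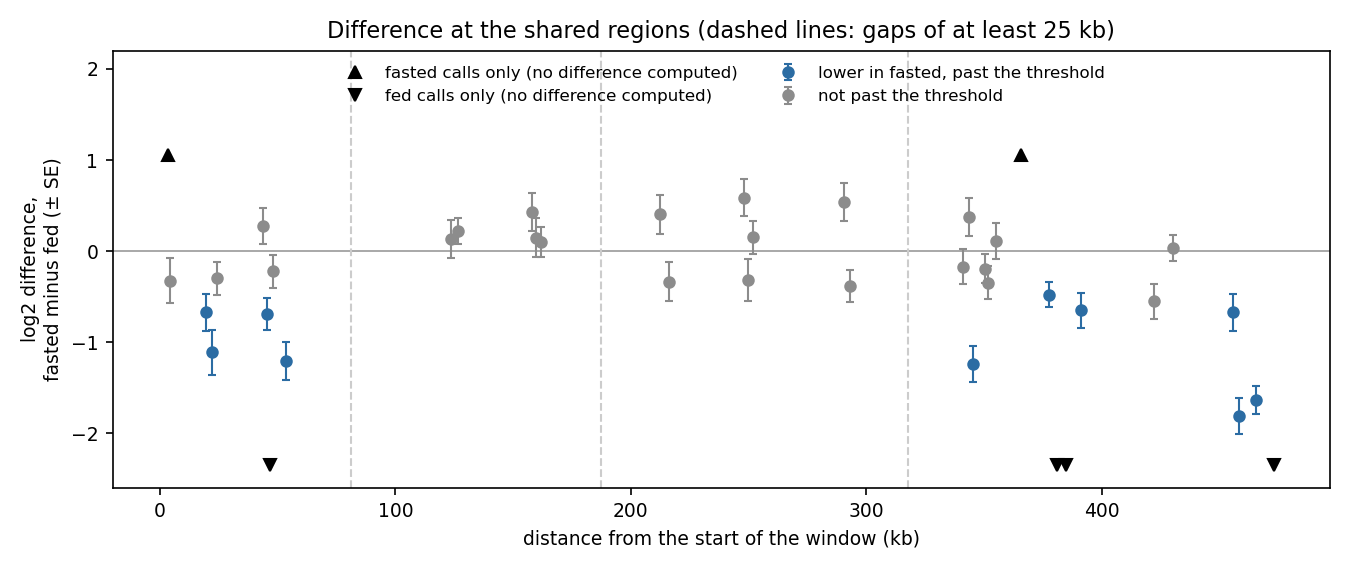
Log2 difference, fasted minus fed, with its SE at the 33 shared regions along the window in kb from its start; dashed lines mark gaps of at least 25 kb, and triangles, whose height has no meaning, mark sites called in 1 group only. The 10 regions past the threshold lie in the first and last stretch, and the points between the outer dashed lines run from -0.39 to 0.58.

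The 10 losses lay in the outer stretches of the cluster. Over the whole series, 7.84% of shared regions were lower. Gaps of at least 25 kb, a width set after the values were seen, split the window into 4 stretches. In the first (chr12:104853206-104918525) 4 of 8 shared regions fell and the median log2 difference was -0.50. In the second (chr12:104943829-105012348) none of 5 passed, all 5 differences were positive and the median was 0.14. In the third (chr12:105061979-105153422) none of 7 passed, with a median of 0.15. In the last (chr12:105182138-105327877) 6 of 13 fell, with a median of -0.48, and 3 of the 4 fed-only sites lay there. These are descriptions of stretches drawn with the values known, and the difference between stretches was not tested.

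None of the 12 shared sites of the middle stretches passed in either direction. Those without overlap of centred values ran both ways, 4 higher and 1 lower in fasted livers. Over all shared regions of the series, 16.8% were higher and 14.6% lower without overlap, and nothing is read from the 4 and 1. At chr12:104975681-104977158 (126 kb), among the strongest sites of the cluster, density was 91.9, 70.3 and 111 in fasted and 89.0, 77.6 and 76.0 in fed livers. Its groups overlapped, with a difference of 0.22 (SE 0.15). At chr12:105097732-105098462 (248 kb) it was 36.0, 22.5 and 38.7 in fasted and 24.3, 18.7 and 22.9 in fed livers. Deposited densities overlapped through fasted replicate 2, the deepest library, but centred ones did not, with a difference of 0.58 (SE 0.20) that passed only without fasted replicate 2 (0.76). The same held for chr12:105138979-105141661 (289 kb), with 30.9, 19.1 and 34.8 in fasted and 17.3, 20.6 and 21.1 in fed livers, a difference of 0.54 (SE 0.21), and 0.73 without that library, but with average tag density it was 0.11. There the 3 fasted libraries had a single hotspot of 2225, 2683 and 2376 bp, while fed replicates had shorter ones of 655 to 863 bp and, in replicates 2 and 3, another of 431 and 666 bp.

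The site with fasted livers lower was chr12:105142722-105143724 (293 kb), with 64.7, 40.1 and 62.7 in fasted and 71.3, 67.1 and 89.5 in fed livers and a difference of -0.39 (SE 0.17) that did not pass. It was named after its values were seen. Smaller positive differences without overlap of centred values were seen at 2 more sites of the middle. chr12:105061979-105062589 (212 kb) had 17.6, 11.6 and 21.5 in fasted and 13.6, 13.1 and 11.9 in fed livers, a difference of 0.40 (SE 0.22). chr12:105011188-105012348 (161 kb) had 45.4, 40.1 and 48.4 in fasted and 45.6, 45.0 and 40.5 in fed livers, a difference of 0.10 (SE 0.16), smaller than its SE. As deposited, both overlapped. Neither passed the threshold.

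The strongest site of the cluster did not change detectably. chr12:105278909-105281517 (429 kb) had 143, 93.9 and 172 in fasted and 145, 135 and 128 in fed livers, or 136 ± 39.4 against 136 ± 8.51 (SD, n = 3 each). Its log2 difference of 0.03 (SE 0.14) was below its error and changed sign with the scaling (-0.04 without centring and -0.09 with quantile normalization). It also changed sign without fasted replicate 1 (-0.0062) or fasted replicate 3 (-0.10). This site stood at percentile 97.2 of mean density over the 6 libraries among all shared regions. It lies in the same part of the window as the shared sites with the greatest losses. chr12:105201235-105202219 (351 kb), also among the 5 strongest, had 66.7, 37.9 and 72.6 in fasted and 86.1, 65.9 and 79.0 in fed livers, with groups that overlapped and a difference of -0.35 (SE 0.18), or -0.12 without fasted replicate 2. chr12:105271619-105272572 (422 kb) had 20.1, 16.8 and 19.7 in fasted and 29.4, 33.7 and 25.9 in fed livers, without overlap, and its difference of -0.55 (SE 0.19) passed only without centring (-0.62) or with average densities (-0.52).

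**Figure D5:**
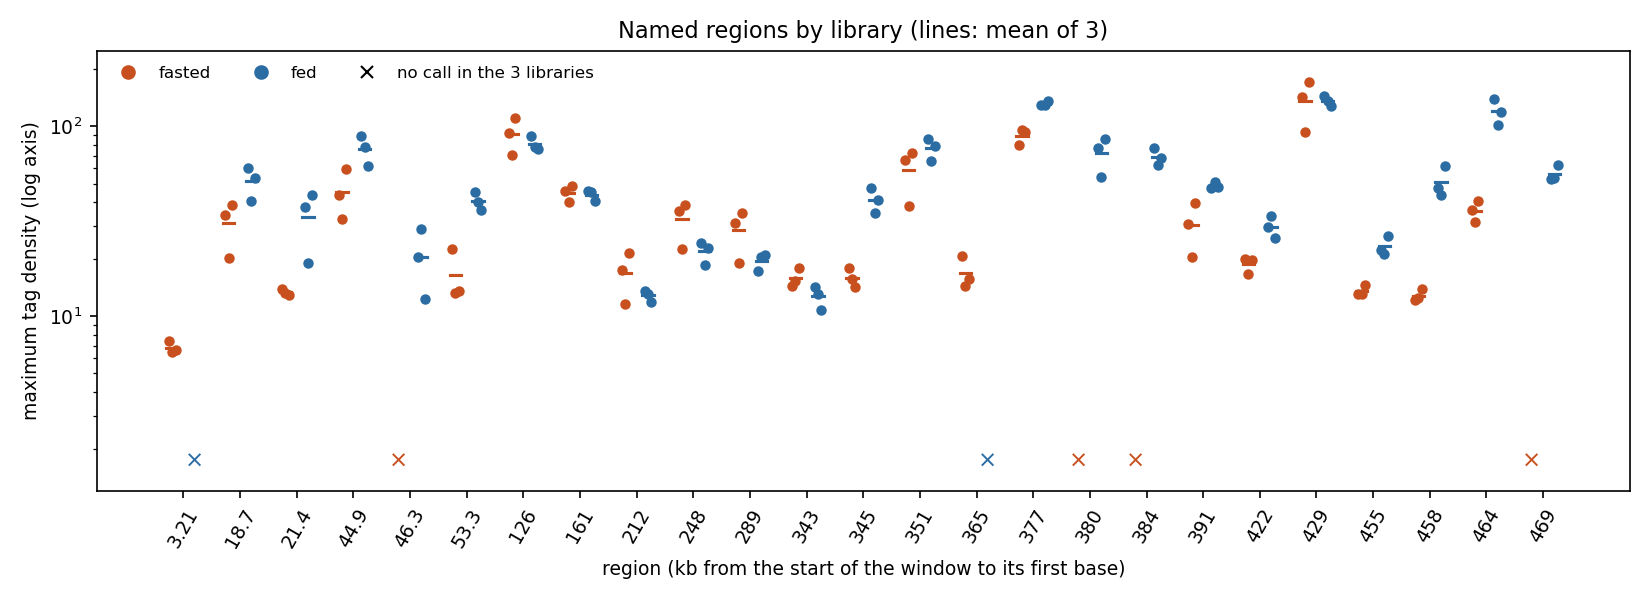
Maximum tag density of the named regions by library (log axis), fasted left of fed at each region, with regions labelled by kb from the start of the window; lines are means of 3 and a cross marks a group with no call. Fasted points lie below fed ones at the regions of 345, 458 and 464 kb, and the groups overlap at 126 and 429 kb.

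Levels over all 6 libraries placed the cluster somewhat above the typical shared region, but they include the fed libraries whose densities led to the window. On the centred log2 scale, the median of the 33 shared regions was 0.40, -0.04 and 0.49 in fasted replicates 1 to 3. In fed replicates 1 to 3 it was 0.65, 0.54 and 0.71. The mean maximum tag density had a median of 28.6 over the 33 shared regions, and of 23.7 over all 37044. Above the median level of all shared regions stood 22 of the 33, and 1 was in the top 5%. Widths differed little, with a median of 1030 bp against 1054 bp over all shared regions.

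Regions called in some libraries of a group were mostly weak. Of the 14 regions called in 1 library only, 8 came from fed replicate 3, a deep library. Only 1 came from fasted replicate 2, the deepest library, and the remaining libraries gave 1 or 2 each. The highest density among these 14 was 22.5, in fed replicate 2. Of the 12 other combinations, chr12:105104766-105105656 (255 kb) ran the opposite way to the fed-only sites, with 39.4, 28.4 and 39.0 in fasted livers and 19.1 and 15.8 in fed replicates 2 and 3, and no call in fed replicate 1. Its neighbour chr12:105103523-105104268 had 14.8, 16.0 and 21.2 in fasted livers and a call in fed replicate 3 alone (13.0). On the fed side, chr12:105130065-105132931 (280.1 kb) had 8.51 and 6.91 in fasted replicates 1 and 2 and 24.6, 22.1 and 29.8 in fed livers. chr12:105273697-105274384 (424 kb) had 7.10 in fasted replicate 2 alone and 18.8, 16.1 and 29.5 in fed livers. These 4 were named after their values were seen, and none was tested.

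At the edges of the window, the last region before it (chr12:104847145-104848125, 1.88 kb away) had 10.5, 9.87 and 9.99 in fasted and 8.83, 9.74 and 5.26 in fed livers. The first region inside is the weak fasted-only site at 3.21 kb. The last region inside is the 9135 bp fed-only region, and the first after it (chr12:105328319-105328740, 8.32 kb past the window) was called in fasted livers alone, at 6.81, 5.53 and 7.26. The 300 kb before the window held 24 regions with no fed-only and no fasted-only site and a median log2 difference of 0.08 over 15 shared regions. The 300 kb after it held 18, with 1 fasted-only site, that at the edge, and a median of -0.04 over 8 shared regions. Differences of shared regions ran from -0.38 to 0.83 before the window and from -2.18 to 0.46 after it. The lowest is the broad region described under other observations.

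Outside the window, the fed-only regions nearest in mean density to the first site of the pair were chr7:4766593-4767792 (75.8 ± 24.9 in fed livers), chr6:121120793-121121850 (80.4 ± 5.48) and chr1:40293321-40294304 (63.5 ± 17.7; SD, n = 3 each). They are on other chromosomes, and the only likeness measured is that mean.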

How the data were processed

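DNase I hypersensitive sites were measured in 3 fasted and 3 fed liver libraries. Per the labels' protocols, liver nuclei were digested with DNase I (40 U/ml) and DNA of 100 to 500 bp was kept. Per the submitters' processing notes, CASAVA 1.8 and build mm9 were used. No source used here names the aligner or the hotspot caller. Hotspots were called per library. Tag density, maximum and average, is the authors' coverage signal per hotspot, of unstated scale. The score (z) of each hotspot was computed by the authors, per the file headers, and was not used. The p-value was likewise deposited by the authors and not used.

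Hotspots on chromosomes 1 to 19 and X were merged where they overlapped by 1 bp or more, and the highest maximum density in a region was its value. Covered lengths were clipped at the limits of the window. Regions called in all 6 libraries were fitted with limma 3.58.1 (R 4.3.3, mean-variance trend) on log2(density + 1), centred per library, with Benjamini-Hochberg adjustment over all 37044 at 0.05. The fit was run on simulated data with the same normal spread for all regions and libraries. Such data cannot check the mean-variance trend or unequal noise of replicates, so nothing is concluded from that run. Tables, alignments and plots used Python 3.11.15, pandas 2.3.3, Biopython 1.88 and matplotlib 3.10.9. If 1 step is 1 tag, which no source used here states, heights of replicates differed by more than counting noise (mean squared z of 2.18 to 5.73). On that reading none was counted as a duplicate. On the same assumption, 5% of hotspots in every library were at most 13 to 16 tags high, and such sites carry a large counting error.

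Named regions are those called in 1 group only, shared regions without overlap among the 10 greatest differences in each direction, the 5 strongest shared regions, and the 3 outside fed-only regions nearest in density to the strongest inside. The members, lists and tests were chosen with earlier results of these data known.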

Additional observations from a re-analysis of the deposited data

How the results depend on the processing

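The 10 shared regions lower in fasted livers numbered 8 to 11 under other pseudocounts, scalings, average density and the upper 50% of regions. They numbered 6 (without fed replicate 3) to 10 on leaving out each replicate. With missing calls filled with the lowest density in that list, the fit took in all 65 members, and 13 were lower. Filling fixes the direction of fed-only sites, so the 13 are not a check on the 10. The shared regions at 18.7, 377, 391 and 455 kb no longer passed there. The 0 higher regions became 2 of the 65 with missing calls filled, which likewise fixes the direction of fasted-only sites, and 0 to 2 on leaving out each replicate. Deviations of libraries sharing a number were correlated at -0.067, -0.030 and -0.167, and no library correlated best with its own number. The replicate block again gave 10 lower and 0 higher regions. The median difference of -0.30 lay between -0.32 and -0.17 without each replicate in turn and ran from -0.37 to -0.19 elsewhere. It reversed to 0.10 over the 21 shared regions left without the outer 50 kb on each side. Those outer parts hold the lower regions at 18.7, 21.4, 44.9, 455, 458 and 464 kb. Fed-only sites numbered 4 to 5 on leaving out each replicate, 7 with only hotspots of density 10 or more, 6 where hotspots had to cover 50% of a region and 2 in the narrower window. Fasted-only sites numbered 2 to 5 on leaving out each replicate, and 1 with merging within 150 bp, with hotspots of density 10 or more and in the narrower window. Leaving out a library cannot remove a site from either class unless the merging of hotspots changes, so those counts could hardly fall. The cut at density 10 and the 50% cover drop weak or short calls, which can turn partly called regions into sites of 1 group only. At 332 kb, for example, the fasted calls had only 7.38 and 8.49. The difference in hotspots per library, -4.33, was -10.3 with density 10 or more. The difference in covered DNA, -4.81 kb, was -2.47 kb without the fed-only pair, and -12.3 kb with hotspots that cross the end of the window counted in full, both chosen after the data were seen. Of 262 values of the 19 named shared regions, 234 kept direction and side of the threshold, 20 fell short of it, 4 passed it and 4 changed sign. All 4 sign changes were at chr12:105278909-105281517 (-0.040 without centring, -0.093 with quantile normalization, and -0.0062 and -0.099 without fasted replicates 1 and 3, in a range of -0.099 to 0.22 on leaving out each replicate). The cause was not tested.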

Other observations

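Past the window, 260.04 kb after its end, lies another broad region, chr12:105580037-105587555, 7519 bp wide and the 7th widest of the 75169 union regions. Unlike the regions of 5360 and 9135 bp inside the window, it was called in every library. Its maximum tag density was 14.5, 24.7 and 9.69 in fasted livers, against 79.4, 68.6 and 81.0 in fed livers, or 16.3 ± 7.65 and 76.3 ± 6.78 (SD, n = 3 each). Every fasted library lay below every fed one, with a log2 difference of -2.18. It was looked at after its values were seen, and no test of it is given.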
